A study of Rattus norvegicus with 21 samples.

Results

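The amino acid and organic ion transporters described here are the 76 genes, of 13337 named genes on the array, whose symbol places them in the Slc1, Slc3, Slc6, Slc7, Slc16, Slc22, Slc36, Slc38 or Slc43 family. Membership goes by symbol, so no measured value decides whether a gene of these families is included, although the families were picked with earlier results of these data known: 6 belong to Slc1, 2 to Slc3, 13 to Slc6, 14 to Slc7, 9 to Slc16, 16 to Slc22, 3 to Slc36, 10 to Slc38 and 3 to Slc43. Their RNA levels come from Illumina bead arrays of liver outside tumours, from 21 male Wistar rats in 7 groups of 3. Diethylnitrosamine (DEN), a hepatocarcinogen that hepatocytes activate, was injected into the peritoneum weekly at 50 or 100 mg/kg, and control rats had PBS. A course of 18 weeks and a washout of 1 week are recorded for all 7 groups, those taken at week 12 included. Rats on 50 mg/kg formed 4 groups, 1 taken at week 12 (DEN 50 livers) and 3 at week 18, and rats on 100 mg/kg formed 1 group taken at week 12 (DEN 100 livers). The 3 groups of week 18 had also received vehicle (vehicle livers), or the EGF receptor inhibitor erlotinib at 0.5 or 2 mg/kg (erlotinib 0.5 and erlotinib 2 livers), 5 times a week from week 13 to week 18. PBS livers were taken at weeks 12 and 18, and the PBS rats of week 18 had no vehicle injections. The labels call all DEN groups cirrhotic. The erlotinib doses come from separate studies whose vehicle rats were pooled, so dose and study cannot be told apart. The labels date the arrays as weeks 12 and 18, the design text puts killing at weeks 9, 13 and 19, and rat ages are not given in the sources used here. Label numbers were read as separate rats, called a, b and c within each group in the order their values are printed.

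Solute carriers of these families set which amino acids, lactate, creatine, carnitine and organic ions pass the hepatocyte membrane. Slc3 proteins are heavy chains that bring Slc7 light chains to the cell surface, where the pair exchanges amino acids. Slc38 proteins take up glutamine and other neutral amino acids with sodium, Slc1 proteins carry glutamate or exchange neutral amino acids, and Slc6 proteins carry taurine, creatine, glycine and related solutes with sodium and chloride. Slc16 proteins move lactate, ketone bodies or aromatic amino acids, and Slc22 proteins carry organic anions, organic cations or carnitine, for which the liver is a main site of clearance.

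Promoter bases are shown for 2 pairs of genes, picked with the results known. Slc22a8 and Slc22a7 were both lower in DEN 100 and vehicle livers and higher in erlotinib 2 than in vehicle livers. Slc3a2 and Slc7a7, a heavy chain and a light chain that partners with it, were both higher in DEN 100 livers. RefSeq (assembly GRCr8) gave the 250 bases upstream of the start for 58 of the 76 genes, 5′ to 3′ on the strand of the gene. The intervals are chr1:214927034-214927283 on the plus strand for Slc22a8, chr9:22045248-22045497 on the plus strand for Slc22a7, chr1:215039671-215039920 on the minus strand for Slc3a2 and chr15:31835684-31835933 on the minus strand for Slc7a7. Capitals mark a match to the antioxidant response element, searched as TGACNNNGC on both strands.
Slc22a8: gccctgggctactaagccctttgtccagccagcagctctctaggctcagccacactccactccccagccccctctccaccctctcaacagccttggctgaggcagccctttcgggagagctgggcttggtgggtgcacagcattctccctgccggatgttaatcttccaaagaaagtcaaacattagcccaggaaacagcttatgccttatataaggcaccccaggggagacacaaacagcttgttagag
Slc22a7: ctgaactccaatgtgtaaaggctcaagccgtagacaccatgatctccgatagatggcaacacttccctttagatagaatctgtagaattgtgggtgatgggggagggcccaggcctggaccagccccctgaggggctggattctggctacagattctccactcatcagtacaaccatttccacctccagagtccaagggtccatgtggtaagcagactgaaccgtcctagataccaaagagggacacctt
Slc3a2: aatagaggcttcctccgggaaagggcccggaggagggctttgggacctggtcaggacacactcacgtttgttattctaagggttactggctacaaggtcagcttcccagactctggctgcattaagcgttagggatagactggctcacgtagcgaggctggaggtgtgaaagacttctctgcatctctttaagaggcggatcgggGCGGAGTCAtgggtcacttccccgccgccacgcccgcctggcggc
Slc7a7: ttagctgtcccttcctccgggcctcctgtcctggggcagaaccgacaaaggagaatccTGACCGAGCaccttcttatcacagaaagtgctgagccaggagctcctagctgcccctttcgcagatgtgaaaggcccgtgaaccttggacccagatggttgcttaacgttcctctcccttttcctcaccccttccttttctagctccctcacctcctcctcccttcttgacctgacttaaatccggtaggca
In Slc3a2 the match lies at bases -45 to -37 from the start on the opposite strand, and in Slc7a7 at -192 to -184 on the strand of the gene. Matches to this motif were present in 11 of the 58 promoters and in 10.1% of all 33469 promoters of the table. Of the other carriers higher in DEN 100 livers, Slc6a6 held a match. Slc7a6, the other light chain that partners with Slc3a2, held none, nor did Slc1a3, Slc6a8, Slc16a3 and Slc22a5. Slc3a1, Slc16a1 and Slc22a23, each called lower in a DEN against PBS comparison, held a match. An amino acid response element, searched as TGATGNAAN, was matched in 3 of the 58 and in 3.38% of all. An HNF1 site was matched in 1 of the 58, Slc7a15, and in 0.0448% of all, and an HNF4 site (CAAAGTCCA) in 1, Slc3a1, and in 0.338% of all. The Slc22a8 and Slc22a7 windows held none of these 4 strings on either strand. These matches describe letters only.

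Signal was read as normalized log2 intensity, and a change is a difference of group means on that scale with its standard error. Group means of at most 6.38, the middle of all normalized values, were taken as near background. By this measure 28 of the 76 transporters were near background in all 7 groups and 28 were above it in all 7. Slc7a13 and Slc7a15 did not pass the filter on dim probes, which left 74 of 76 tested. Slc7a11, the cystine carrier of system xc-, was near background in every group, as were the cationic carrier Slc7a1 and the organic cation carriers Slc22a2 and Slc22a3. For Slc7a11 the DEN 100 change was 0.23, with a 95% interval of -0.06 to 0.53.

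In DEN 100 livers, the organic anion carriers Slc22a8 and Slc22a7, the taurine and GABA carrier Slc6a13, the glutamine carrier Slc38a3 and the glutamate carrier Slc1a2 were lower than in PBS livers. The light chains Slc7a6 and Slc7a7, the creatine carrier Slc6a8, the carnitine carrier Slc22a5 and the monocarboxylate family members Slc16a3 and Slc16a6 were higher. A gene was called at a Benjamini-Hochberg adjusted p under 0.05 over all 19339 features, from limma. At week 12, 23 of 74 transporters (31.1%) were called in DEN 100 against PBS livers, 10 higher and 13 lower, beside 21.3% of all features (11.5% higher and 9.81% lower). The median change was -0.05 over the transporters and -0.01 over all features. In DEN 50 against PBS livers, which share the same 3 PBS arrays, 7 were higher and 7 lower (18.9%), beside 10.9% of all features with 5.77% higher and 5.13% lower. At week 18, 7 were higher and 15 lower in vehicle against PBS livers (29.7%), beside 18.2% of all features with 9.51% higher and 8.73% lower. In all, 30 transporters were called in at least 1 of these 3 comparisons, and none was called in opposite directions. Slc6a8, Slc7a6, Slc7a7, Slc16a3 and Slc16a6 were higher in all 3, and Slc1a2, Slc6a13, Slc16a4, Slc16a10 and Slc22a8 were lower in all 3. Calls in any or in all 3 comparisons were not counted over all features, so these counts have no share beside them. The comparisons are not independent either, because DEN 100 and DEN 50 livers were set against the same PBS arrays.

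How the arrays were scaled moved the number and the balance of calls. With each array scaled to its median in place of quantile normalization, 8 transporters were higher and 7 lower in DEN 100 livers, 7 and 3 in DEN 50 livers and 7 and 4 in vehicle livers. Of all 19339 features, 2317, 1377 and 1963 were then called in these comparisons, and 67.9%, 89.7% and 79.5% of those calls were higher. With arrays scaled on their bright probes, all features shifted together by a median of -0.20, -0.49 and -0.34 in these comparisons, and the counts were 6 and 7, 1 and 8, and 2 and 11. Of all 19339 features, 2409, 1312 and 1944 were called under that scaling, and 49.9%, 35% and 41.2% of those calls were higher. No named call changed sign under either scaling. Calls that held under every alternative tried, left-out arrays included, were those on Slc1a2, Slc6a8, Slc6a13, Slc7a6, Slc7a7, Slc16a3, Slc16a4, Slc16a6, Slc22a5, Slc22a7, Slc22a8 and Slc38a3 in DEN 100 livers. In DEN 50 livers they were Slc1a2, Slc6a13 and Slc22a8, and in vehicle livers Slc6a13, Slc7a7, Slc16a3, Slc22a8, Slc38a3 and Slc43a1. Median scaling or bright-probe scaling ended every other DEN 100 call of the list (adjusted p up to 0.66), that on Slc3a2 included, every other vehicle call, and every other DEN 50 call except that on Slc6a9.

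Markers of other cell types moved with these comparisons. Cholangiocyte markers were higher for 5 of 5 measured genes in DEN 100 livers, with a summed intensity of 6912 to 13543 per array, against 614 to 1047 in PBS livers at week 12. Stellate cell and myofibroblast markers were higher for 6 of 8, with sums of 12293 to 15285 in DEN 100 livers and 2575 to 3941 in PBS livers. Macrophage markers were higher for 4 of 5 and lower for 1, with sums of 5296 to 13066 and 2580 to 4882 in the same groups. Hepatocyte markers were higher for 1 of 7 and lower for 1, with sums of 137414 to 196069 in DEN 100 livers and 207599 to 220326 in PBS livers; of these, Apob alone was near background, in every group. In vehicle livers the markers were higher for 4 of 5, 7 of 8 and 4 of 5 genes of these other cell types and lower for 1 of 7 hepatocyte genes. Their sums were 4305 to 9120 for cholangiocyte, 12348 to 16275 for stellate, 6616 to 10263 for macrophage and 175218 to 199121 for hepatocyte markers, against 842 to 959, 2162 to 2283, 2692 to 3143 and 208011 to 216243 in PBS livers at week 18. In DEN 50 livers cholangiocyte markers were higher for 4 of 5 genes, stellate cell markers for 4 of 8 and macrophage markers for 2 of 5 with 1 lower, and hepatocyte markers were lower for 1 of 7. Their sums in DEN 50 livers were 2747 to 5539, 8453 to 11478, 6148 to 7447 and 169243 to 209513. Both measured endothelial markers of 7 listed were higher in DEN 100 and in vehicle livers and were not called in DEN 50 livers, with sums of 1768 to 2600 in DEN 100, 1574 to 2252 in vehicle and 1272 to 1587 in DEN 50 livers, against 885 to 955 in PBS livers at week 12 and 926 to 1073 at week 18. Krt7 and Col1a1 were near background in both PBS groups, and Krt7 in DEN 50 livers too. Mast cell markers were higher for 5 of 6 genes in DEN 100 and in vehicle livers. In bulk liver, fewer cells of a type and less RNA per cell cannot be told apart, and the part of these cell types in the transporter changes was not tested.

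Among the organic anion carriers, Slc22a8 (OAT3), which takes up organic anions from blood, had the lowest adjusted p of all members in both DEN 100 and vehicle livers. On the dose series at week 12 its level was 9.39, 9.34 and 9.33 in PBS livers, 8.21, 7.27 and 6.98 in DEN 50 livers and 6.43, 6.57 and 6.28 in DEN 100 livers. The 3 groups did not overlap, and the DEN 100 arrays lay around the background level. The change was -2.93 ± 0.23 in DEN 100 livers (adjusted p = 3.43e-09), and -1.86 ± 0.23 in DEN 50 livers (adjusted p = 1.04e-05). The doses also differed from each other, at -1.06 ± 0.23 for DEN 100 against DEN 50 (adjusted p = 0.00398). This dose step was lost under scaling on bright probes (-0.84, adjusted p = 0.167) and with the compared arrays alone (adjusted p = 0.0615). At week 18 Slc22a8 was at 6.88, 6.49 and 6.63 in vehicle livers, against 8.98, 8.63 and 9.00 in PBS livers, a change of -2.20 ± 0.23 (adjusted p = 4.96e-07).

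Slc22a7 (OAT2), the other organic anion carrier that was called, was lower at the higher DEN dose. It was at 10.41, 10.75 and 10.41 in PBS livers, 10.85, 10.11 and 10.22 in DEN 50 livers and 9.47, 8.88 and 8.84 in DEN 100 livers. All DEN 100 arrays were below all others of week 12, whereas DEN 50 and PBS arrays overlapped. Its change was -1.46 ± 0.20 in DEN 100 against PBS livers (adjusted p = 8.44e-06), and -1.33 ± 0.20 in DEN 100 against DEN 50 livers (adjusted p = 0.000114). In DEN 50 against PBS livers it was -0.13, with a 95% interval of -0.55 to 0.29 and no call. At week 18 it was at 9.53, 9.80 and 9.59 in vehicle livers, against 10.79, 10.64 and 10.61 in PBS livers (-1.04 ± 0.20, adjusted p = 0.000634).

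The carnitine carrier Slc22a5 (OCTN2) went the other way. It was at 9.61, 10.65 and 9.73 in DEN 100 livers, against 8.51, 9.47 and 8.72 in PBS livers, with every DEN 100 array above every PBS array. The change was 1.10 ± 0.27 (adjusted p = 0.00366). It was not called in DEN 50 livers (0.02, interval -0.53 to 0.57) or in vehicle livers (0.35, interval -0.20 to 0.90), and the 2 DEN doses differed by 1.07 ± 0.27 (adjusted p = 0.0105). The call between the doses was lost without DEN 100 rat b, at 0.75 and an adjusted p of 0.0759. Slc22a17, a receptor for lipocalin 2, fell by 0.51 in DEN 100 livers and by 0.52 in vehicle livers. Its call was lost in DEN 100 livers without PBS rat a (-0.38, adjusted p = 0.0946) or without DEN 100 rat a (-0.46, adjusted p = 0.0574). It was also lost in vehicle livers without PBS rat a or vehicle rats a or c (adjusted p = 0.0601 to 0.0773). Slc22a23 fell by 0.45 in DEN 100 livers, to near background, on its brighter probe, while its second probe showed 0.13 (adjusted p over probes = 0.607), so the probes disagree; the call was also lost without PBS rat a or DEN 100 rat c (adjusted p = 0.0511 and 0.0618).

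**Figure D1:**
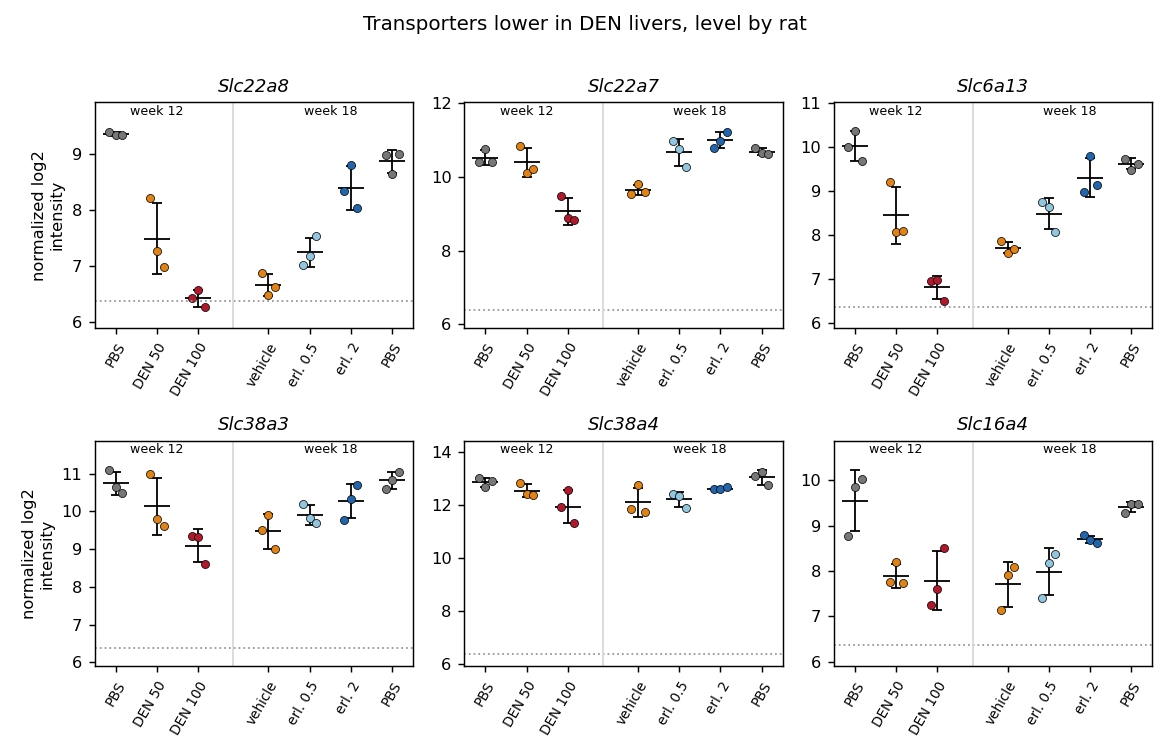
Normalized log2 intensity of 6 transporters in each rat (points) at week 12 (left of the grey line) and week 18, with the group mean and SD (bars, n = 3 per group); the dotted line marks the background level of 6.38, and DEN 50 underlies vehicle and both erlotinib groups. The DEN 100 arrays of Slc22a8 lie between 6.28 and 6.57, against 9.33 to 9.39 in PBS livers, and the erlotinib 2 arrays lie between 8.03 and 8.81, against 6.49 to 6.88 in vehicle livers.

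Within Slc6, Slc6a13 (GAT2), a taurine and GABA carrier of hepatocytes, was lower and the creatine carrier Slc6a8 was higher. Slc6a13 was at 10.02, 10.365 and 9.68 in PBS livers, 9.21, 8.07 and 8.09 in DEN 50 livers and 6.96, 6.99 and 6.51 in DEN 100 livers. These groups did not overlap. The change was -3.20 ± 0.26 in DEN 100 livers, 9.19-fold lower than in PBS livers (adjusted p = 5.14e-09), and -1.57 ± 0.26 in DEN 50 livers (adjusted p = 0.000291). The step between the doses was -1.63 ± 0.26 (adjusted p = 0.000204), and in vehicle against PBS livers the change was -1.90 ± 0.26 (adjusted p = 1.46e-05).

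Slc6a8 was at 7.77, 7.99 and 7.82 in DEN 100 livers, against 6.89, 6.98 and 6.55 in PBS livers at week 12, and at 7.32, 7.54 and 7.63 in vehicle livers, against 6.62, 6.66 and 6.55 in PBS livers at week 18. Neither pair of groups overlapped. The changes were 1.05 ± 0.14 in DEN 100 livers (adjusted p = 4.82e-06) and 0.88 ± 0.14 in vehicle livers (adjusted p = 6.92e-05). In DEN 50 livers Slc6a8 was 0.49 higher (adjusted p = 0.0227), a call that was lost without PBS rat c (0.36, adjusted p = 0.137), DEN 50 rat a (0.38, adjusted p = 0.135) or DEN 50 rat b (0.51, adjusted p = 0.0503). The taurine carrier Slc6a6 was 0.66 higher in DEN 100 livers and 0.87 higher in vehicle livers; its DEN 100 and PBS arrays overlapped, and that call was lost without PBS rat a (0.42, adjusted p = 0.0896) or DEN 100 rat a (0.47, adjusted p = 0.0819). The glycine carrier Slc6a9 was higher in DEN 50 livers, at 1.09 ± 0.27 (adjusted p = 0.00887), and lost that call without DEN 50 rat a (0.84, adjusted p = 0.0669). It was not called in DEN 100 livers (0.47, interval -0.09 to 1.02), and the doses were not shown to differ (DEN 100 against DEN 50 -0.62, adjusted p = 0.183).

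Of 10 Slc38 genes, Slc38a3 and Slc38a4 were lower in DEN 100 livers, and none was higher. Beside them, 21.3% of all features were called there, 11.5% higher and 9.81% lower. Slc38a3 (SNAT3), the system N glutamine carrier, was at 9.35, 9.33 and 8.59 in DEN 100 livers, against 11.09, 10.65 and 10.49 in PBS livers. It was at 9.50, 9.92 and 8.99 in vehicle livers, against 10.60, 10.84 and 11.05 in PBS livers at week 18. In both pairs every DEN array lay below every PBS array. The change was -1.65 ± 0.31 in DEN 100 livers (adjusted p = 0.0003) and -1.36 ± 0.31 in vehicle livers (adjusted p = 0.00268). In DEN 50 livers at week 12 the arrays were at 10.99, 9.79 and 9.61, and the change of -0.62 was not called (interval -1.25 to 0.02). DEN 50 rat a stood above the other 2 DEN 50 rats for Slc38a3, Slc22a8 and Slc6a13.

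Slc38a4 (SNAT4), a system A carrier of liver, was at 11.92, 12.56 and 11.32 in DEN 100 livers, against 13.01, 12.68 and 12.89 in PBS livers. The groups were apart by a narrow margin and the change was -0.92 ± 0.26 (adjusted p = 0.0108), which was lost without DEN 100 rat c (-0.62, adjusted p = 0.0951). In vehicle livers it was -0.93 ± 0.26 (adjusted p = 0.0122), and leaving out PBS rat b, vehicle rat a or vehicle rat c took the adjusted p to 0.0569 to 0.0803. Slc38a2 (SNAT2), the system A carrier induced by amino acid shortage, was at 11.66, 11.86 and 11.54 in DEN 100 livers and 12.18, 11.89 and 12.94 in PBS livers, and its change of -0.65 was not called (interval -1.41 to 0.11). Slc38a7, a lysosomal glutamine exporter, was called lower in vehicle livers (-0.46, adjusted p = 0.0174) and lay near background there; leaving out PBS rats a or c, or vehicle rats a or c, ended that call (adjusted p = 0.0546 to 0.105). Slc38a6 was called higher in DEN 50 livers (0.52, adjusted p = 0.048), with overlapping arrays; leaving out PBS rats a or b or DEN 50 rats a or c ended that call (adjusted p = 0.0915 to 0.278).

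Of the Slc1 carriers, the glutamate carrier Slc1a2 (GLT-1) was lower and the glutamate carrier Slc1a3 (GLAST) higher. Slc1a2 was at 8.21, 7.002 and 7.59 in PBS livers, 6.63, 6.31 and 6.48 in DEN 50 livers and 6.30, 6.21 and 6.41 in DEN 100 livers. All DEN arrays lay below all PBS arrays and close to the background level. The changes were -1.13 ± 0.20 in DEN 50 livers (adjusted p = 0.00049) and -1.29 ± 0.20 in DEN 100 livers (adjusted p = 3.09e-05). In vehicle against PBS livers the change was -0.85 ± 0.20 (adjusted p = 0.00352). Slc1a3 was 0.67 ± 0.15 higher in DEN 100 livers (adjusted p = 0.00153) and 0.63 ± 0.15 higher in vehicle livers (adjusted p = 0.0034), where PBS livers were near background. The neutral amino acid exchanger Slc1a5 (ASCT2) was 0.64 ± 0.19 higher in DEN 100 livers, against PBS livers near background (adjusted p = 0.0161), which was lost without PBS rat c or DEN 100 rats a or b (adjusted p = 0.0664 to 0.086).

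Both light chains of system y+L, which partner with the heavy chain Slc3a2 and exchange cationic for neutral amino acids, were higher in every DEN against PBS comparison. Slc7a7 (y+LAT1), also known as a macrophage gene, was at 7.97, 7.68 and 7.81 in DEN 100 livers, against 6.94, 6.80 and 7.35 in PBS livers. It was at 8.25, 7.75 and 8.21 in vehicle livers, against 7.18, 6.66 and 6.67 in PBS livers at week 18. No DEN array reached down to a PBS array, and the changes were 0.79 ± 0.16 in DEN 100 livers (adjusted p = 0.00083) and 1.24 ± 0.16 in vehicle livers (adjusted p = 8.22e-06). In DEN 50 livers Slc7a7 was 0.65 higher (adjusted p = 0.0102), and 0.54 without PBS rat b (adjusted p = 0.0661).

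Slc7a6 (y+LAT2) was at 6.30, 6.65 and 6.65 in PBS livers, 7.01, 7.06 and 7.46 in DEN 50 livers and 7.99, 7.43 and 7.78 in DEN 100 livers. The PBS arrays were the lowest throughout, and the 2 DEN groups overlapped. Its change was 1.20 ± 0.17 in DEN 100 livers (adjusted p = 1.54e-05), 0.64 ± 0.17 in DEN 50 livers (adjusted p = 0.0175) and 0.72 ± 0.17 in vehicle livers (adjusted p = 0.00472). Without PBS rat a the DEN 50 change was 0.53 (adjusted p = 0.102) and without DEN 50 rat c it was 0.49 (adjusted p = 0.126). Slc3a2 (4F2hc) was at 11.71, 11.85 and 11.07 in DEN 100 livers, against 10.62, 11.004 and 10.15 in PBS livers. Its groups were apart by a narrow margin, with a change of 0.95 ± 0.22 (adjusted p = 0.00263). It was not called in DEN 50 livers (0.34, interval -0.12 to 0.80) or vehicle livers (0.22, interval -0.24 to 0.68).

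Among other Slc7 and Slc43 carriers, calls were lower or absent. The cationic carrier Slc7a2 (CAT2) fell by 0.63 in DEN 100 livers, with overlapping arrays (adjusted p = 0.0308), and by 0.78 in vehicle livers (adjusted p = 0.00875). Leaving out PBS rats a or b, or DEN 100 rats a or c, ended the DEN 100 call (adjusted p = 0.0681 to 0.243), and leaving out PBS rat c or vehicle rat c ended the vehicle call (adjusted p = 0.0532 and 0.0588). Slc7a5 (LAT1), the light chain for large neutral amino acids, was not called (0.12 in DEN 100 livers, interval -0.15 to 0.38). Slc43a1 (LAT3), a facilitator of the same substrates, was at 6.67, 6.73 and 6.53 in vehicle livers, against 7.35, 7.62 and 7.83 in PBS livers, with no overlap and a change of -0.95 ± 0.18 (adjusted p = 0.000378). In DEN 100 livers it fell by 0.59 (adjusted p = 0.017), a call lost without PBS rat c (-0.41, adjusted p = 0.128) or DEN 100 rat c (-0.50, adjusted p = 0.0824). In vehicle livers Slc43a3, a purine base carrier, fell by 0.50 and the heavy chain Slc3a1 (rBAT) fell by 0.58, and each lost its call without at least 1 array: PBS rat b or vehicle rats a or c for Slc43a3 (adjusted p = 0.0554 to 0.174), and PBS rats b or c or vehicle rats a or c for Slc3a1 (adjusted p = 0.0621 to 0.147).

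**Figure D2:**
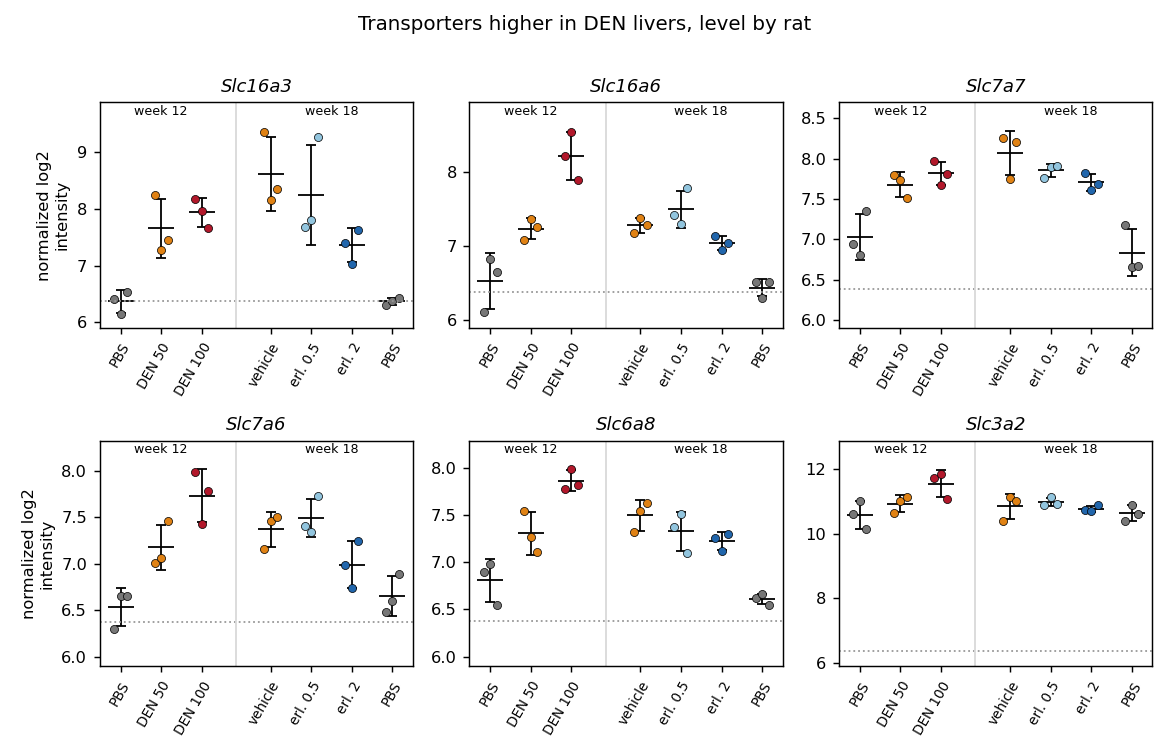
Normalized log2 intensity of 6 transporters in each rat (points) at week 12 (left of the grey line) and week 18, with the group mean and SD (bars, n = 3 per group); the dotted line marks the background level of 6.38. The DEN 100 arrays of Slc16a6 lie between 7.90 and 8.54, against 6.11 to 6.83 in PBS livers, and 1 vehicle array (9.36) and 1 erlotinib 0.5 array (9.26) stand above the rest for Slc16a3.

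The Slc16 family held changes in both directions. Slc16a3 (MCT4), a lactate exporter of glycolytic cells, was at 8.25, 7.27 and 7.45 in DEN 50 livers and 8.18, 7.97 and 7.67 in DEN 100 livers, against 6.42, 6.14 and 6.54 in PBS livers. It was at 9.36, 8.16 and 8.35 in vehicle livers, against 6.31, 6.38 and 6.43 in PBS livers at week 18. PBS livers were near background at both times and every DEN array lay above them. The changes were 1.29 ± 0.33 in DEN 50 livers (adjusted p = 0.0135), 1.57 ± 0.33 in DEN 100 livers (adjusted p = 0.00115) and 2.25 ± 0.33 in vehicle livers (adjusted p = 3.87e-05). The DEN 50 call was lost without PBS rat b (1.20, adjusted p = 0.0556) or DEN 50 rat a (1.01, adjusted p = 0.0873).

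Slc16a6 (MCT7), known in zebrafish as the ketone body exporter of hepatocytes, was at 6.11, 6.83 and 6.65 in PBS livers, 7.08, 7.37 and 7.26 in DEN 50 livers and 8.22, 8.54 and 7.90 in DEN 100 livers. The 3 groups were apart. The change was 1.69 ± 0.17 in DEN 100 livers (adjusted p = 1.43e-07), 0.71 ± 0.17 in DEN 50 livers (adjusted p = 0.00872) and 0.98 ± 0.17 between the doses (adjusted p = 0.000545); median scaling ended the call between the doses (0.82, adjusted p = 0.124). In vehicle against PBS livers it was 0.84 ± 0.17 (adjusted p = 0.00114). The DEN 50 change was 0.50 without PBS rat a (adjusted p = 0.0746).

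Slc16a4 was lower at both doses. It was at 7.75, 8.20 and 7.73 in DEN 50 livers and 7.25, 7.59 and 8.51 in DEN 100 livers, against 8.78, 9.84 and 10.03 in PBS livers. All DEN arrays were below all PBS arrays, and the 2 doses overlapped (DEN 100 against DEN 50 -0.11, interval -0.77 to 0.55). The changes were -1.66 ± 0.32 in DEN 50 livers (adjusted p = 0.00114), -1.77 ± 0.32 in DEN 100 livers (adjusted p = 0.000207) and -1.70 ± 0.32 in vehicle livers (adjusted p = 0.00044). The aromatic amino acid carrier Slc16a10 (TAT1) fell by 0.67 in DEN 50 livers, by 0.76 in DEN 100 livers and by 0.57 in vehicle livers. Its calls were lost without PBS rat a in DEN 50 (-0.51, adjusted p = 0.166) and DEN 100 livers (-0.60, adjusted p = 0.0509). The DEN 50 call was also lost without PBS rat c or DEN 50 rats b or c (adjusted p = 0.0526 to 0.158), and the vehicle call without PBS rats b or c or vehicle rats b or c (adjusted p = 0.111 to 0.194). The lactate and pyruvate carrier Slc16a1 (MCT1) was lower in DEN 50 livers (-1.10 ± 0.27, adjusted p = 0.00954), and was at -0.70 without PBS rat b (adjusted p = 0.0785) and -0.88 without DEN 50 rat a (adjusted p = 0.0667). Slc16a1 was called in no other comparison. Its DEN 100 arrays, at 9.76, 10.61 and 10.10, overlapped the PBS arrays of week 12, at 10.16, 11.50 and 10.49. Slc16a11 fell by 0.63 in DEN 50 livers and by 0.66 in DEN 100 livers, near background in both, and Slc16a13 fell by 0.87 in vehicle livers. Leaving out 1 array ended each of these 3 calls: PBS rats b or c or DEN 50 rats a or b for Slc16a11 in DEN 50 livers (adjusted p = 0.0554 to 0.156), PBS rat b or DEN 100 rat c in DEN 100 livers (adjusted p = 0.0536 and 0.0738), and PBS rat a or vehicle rat a for Slc16a13 (adjusted p = 0.0679 and 0.0784).

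**Figure D3:**
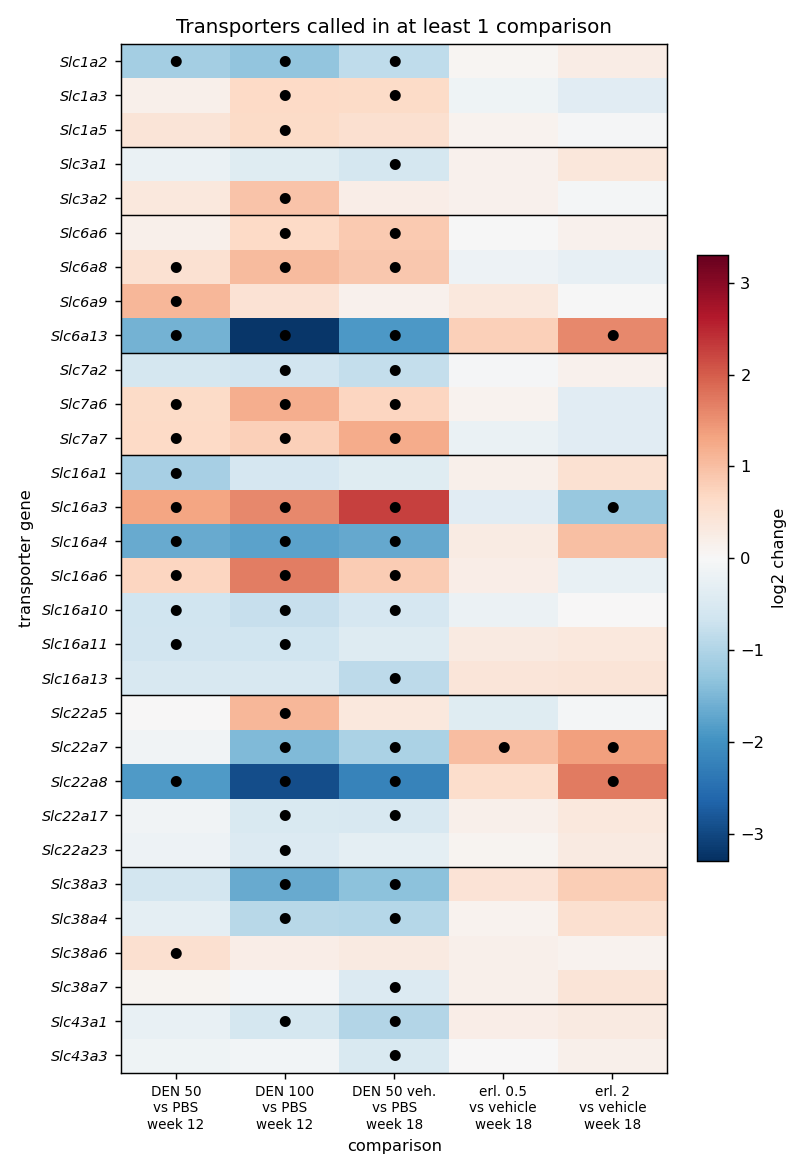
Log2 change of the 30 transporters called in at least 1 comparison (rows, by family) in 5 comparisons (columns), with red for higher and blue for lower in the first-named group; a dot marks an adjusted p under 0.05. Slc6a13 and Slc22a8 are the darkest blue rows at DEN 100, at -3.20 and -2.93, and are red in erlotinib 2 against vehicle livers, at 1.59 and 1.72.

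Set side by side, the Slc22 family and the families of amino acid carriers both held calls in both directions. Families go by symbol. The Slc22 counts thus include the lipocalin 2 receptor Slc22a17 and genes near background in all groups, and the amino acid carriers include the purine base carrier Slc43a3. In DEN 100 against PBS livers, where 21.3% of all features were called (11.5% higher and 9.81% lower), 1 of 16 Slc22 genes was higher and 4 were lower, with a median change of -0.16. Of 12 measured Slc7 genes 2 were higher and 1 lower (median 0.03), and of 10 Slc38 genes none was higher and 2 were lower (median 0.04). The 36 measured amino acid carriers of Slc1, Slc3, Slc7, Slc36, Slc38 and Slc43 together had 5 higher and 5 lower (27.8%), with a median of 0.03. Slc16 had 2 higher and 3 lower of 9, with a median of -0.53, and no Slc36 gene was called. In vehicle against PBS livers, where 18.2% of all features were called, Slc22 had 0 higher and 3 lower (median -0.17), Slc7 had 2 higher and 1 lower (median -0.01) and Slc38 had 0 higher and 3 lower (median -0.05). The difference between families was not tested.

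**Figure D4:**
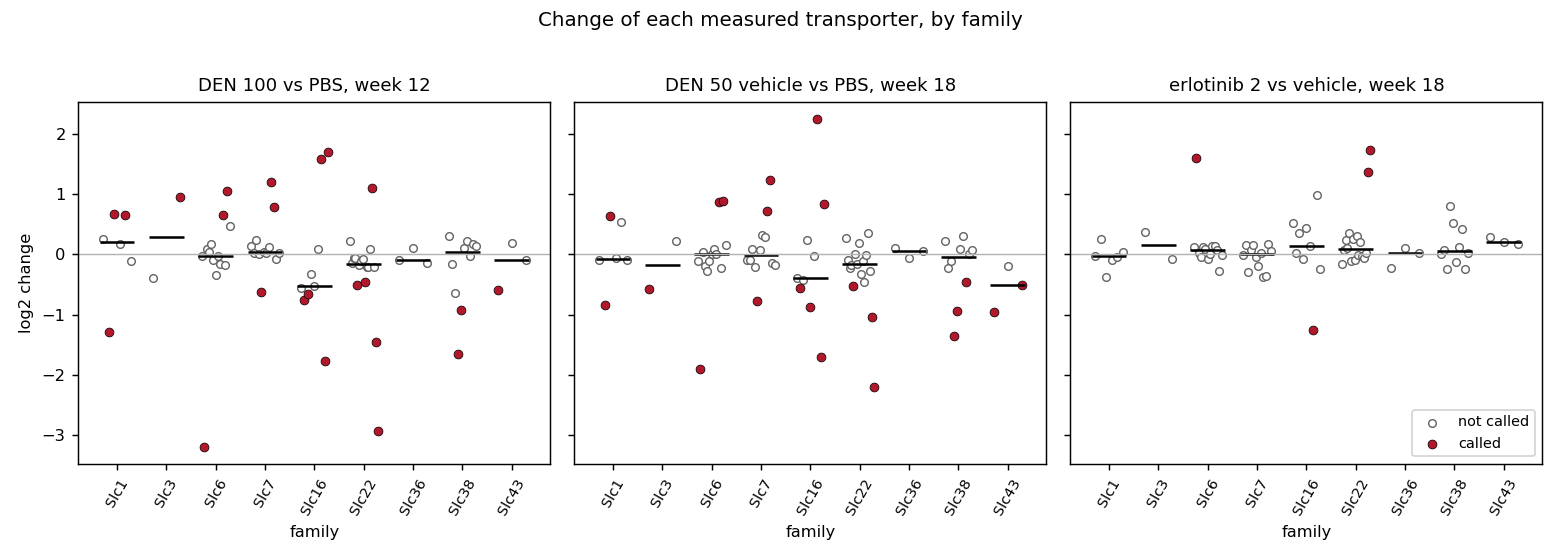
Log2 change of each of the 74 measured transporters (points) by family in 3 comparisons, with the family median as a bar; filled points were called at an adjusted p under 0.05. Most points lie near 0 in each family, and the lowest points at DEN 100 are Slc6a13 (-3.20) and Slc22a8 (-2.93).

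Between the DEN doses at week 12, 9 of 74 transporters (12.2%) were called in DEN 100 against DEN 50 livers, 5 higher and 4 lower, beside 9.38% of all features (5.07% higher and 4.31% lower). The higher genes were Slc1a3, Slc6a8, Slc7a6, Slc16a6 and Slc22a5, and the lower ones Slc6a13, Slc22a7, Slc22a8 and Slc38a3. The calls on Slc6a13 and Slc22a7 held under every alternative tried, and median scaling ended all 5 higher ones (adjusted p = 0.124 to 0.56). For Slc38a3 the step was -1.04 ± 0.31 (adjusted p = 0.0347) and was -0.61 without DEN 50 rat a (adjusted p = 0.264) and -0.79 without DEN 100 rat c (adjusted p = 0.201). Its call also ended with the deposited normalized table, without background correction and with a trended and robust spread. Scaling on bright probes and fitting the compared arrays alone ended it too. The step of Slc7a6 (0.56, adjusted p = 0.0459) was lost without DEN 50 rats a or b or DEN 100 rats a or c (adjusted p = 0.134 to 0.2), and that of Slc1a3 (0.50, adjusted p = 0.0312) without the same 4 arrays (adjusted p = 0.0586 to 0.154). That of Slc6a8 (0.56, adjusted p = 0.0113) was lost without DEN 50 rat c (0.45, adjusted p = 0.0736). The steps of Slc7a6, Slc1a3 and Slc6a8 were also lost with the compared arrays alone. Scaling on bright probes ended those of Slc7a6 and Slc1a3, and the deposited normalized table ended that of Slc7a6.

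With erlotinib at 2 mg/kg, the organic anion carriers Slc22a8 and Slc22a7 and the taurine and GABA carrier Slc6a13 were higher than in vehicle livers, and the lactate exporter Slc16a3 was lower. These 4 of 74 transporters (5.41%) stood beside 4.03% of all features (1.92% higher and 2.11% lower). The median change was 0.04 over the transporters and 0.00 over all features. Slc22a8 was at 6.88, 6.49 and 6.63 in vehicle livers, 7.01, 7.18 and 7.53 in erlotinib 0.5 livers and 8.33, 8.81 and 8.03 in erlotinib 2 livers. The 3 groups did not overlap. Its change against vehicle was 1.72 ± 0.23 with erlotinib 2, 3.296-fold higher (adjusted p = 0.000153), and 0.58 ± 0.23 with erlotinib 0.5, which was not called (adjusted p = 0.318). The difference between the erlotinib groups was 1.15 and missed the threshold (adjusted p = 0.0571).

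Slc22a7 was at 9.53, 9.80 and 9.59 in vehicle livers, 10.97, 10.75 and 10.26 in erlotinib 0.5 livers and 10.78, 10.98 and 11.23 in erlotinib 2 livers. All erlotinib arrays were above all vehicle arrays, and the erlotinib groups overlapped. Against vehicle it was 1.36 ± 0.20 higher with erlotinib 2 (adjusted p = 0.000436) and 1.02 ± 0.20 higher with erlotinib 0.5 (adjusted p = 0.0438). It was the single transporter of 74 called at 0.5 mg/kg, beside 0.14% of all features (0.103% higher and 0.0362% lower), and 9 of 15 alternatives ended that call. Over all 15 the adjusted p ran from 0.014 to 0.55, and over the 9 that ended it from 0.0736 to 0.55. Single arrays that ended it were vehicle rats a (0.97, adjusted p = 0.093) and c (0.9998, adjusted p = 0.0911), and erlotinib 0.5 rats a (0.87, adjusted p = 0.314) and b (0.98, adjusted p = 0.164).

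Slc6a13 was at 7.86, 7.61 and 7.70 in vehicle livers, 8.76, 8.65 and 8.09 in erlotinib 0.5 livers and 8.99, 9.81 and 9.14 in erlotinib 2 livers. The groups did not overlap, and the change against vehicle was 1.59 ± 0.26 with erlotinib 2 (adjusted p = 0.00106) and 0.77 ± 0.26 with erlotinib 0.5 (adjusted p = 0.227, not called). Slc16a3 was at 9.36, 8.16 and 8.35 in vehicle livers, 7.69, 7.80 and 9.26 in erlotinib 0.5 livers and 7.40, 7.04 and 7.64 in erlotinib 2 livers. Erlotinib 2 arrays lay below vehicle arrays, whereas 1 erlotinib 0.5 array lay among them. Its change with erlotinib 2 was -1.26 ± 0.33 (adjusted p = 0.0342), a call that 10 of 15 alternatives ended. Without vehicle rat a it was -0.90 (adjusted p = 0.185), without vehicle rat c it was -1.40 (adjusted p = 0.0521), and without erlotinib 2 rats a, b or c the adjusted p was 0.0793, 0.177 or 0.0528.

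The other carriers called in vehicle against PBS livers were not called in erlotinib 2 against vehicle livers. Slc16a4 was 0.99 higher with erlotinib 2 (interval 0.33 to 1.65, adjusted p = 0.0912), Slc38a3 was 0.80 higher (interval 0.16 to 1.44, adjusted p = 0.184) and Slc38a4 was 0.52 higher (interval -0.02 to 1.05). Slc7a7 was at -0.36 (interval -0.70 to -0.03, adjusted p = 0.28) and Slc6a8 at -0.27 (interval -0.56 to 0.01). A missed threshold does not show that these carriers were unchanged. Cholangiocyte markers were lower with erlotinib 2 for 3 of 5 measured genes, with summed intensities of 1830 to 3617, against 4305 to 9120 in vehicle livers. Stellate cell and myofibroblast markers were lower for 6 of 8, with sums of 5042 to 6316 in erlotinib 2 livers and 12348 to 16275 in vehicle livers, and hepatocyte markers were higher for 1 of 7, with sums of 202676 to 204149 and 175218 to 199121. Macrophage markers were higher for 1 of 5, with sums of 6576 to 8633 and 6616 to 10263. Mast cell markers were lower for 3 of 6, and neither measured endothelial marker was called. The part of these cell types in the erlotinib results was not tested.

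Genes of the same pathways were counted from lists, which hold no transporter of these families but Slc7a11. Of all features, 21.3% were called in DEN 100, 10.9% in DEN 50 and 18.2% in vehicle against PBS livers. In erlotinib 2 against vehicle livers 4.03% were called. Of 12 measured carriers of the hepatocyte membrane outside these families, 3 were higher and 8 lower in DEN 100 livers (median -1.30), 2 and 4 in DEN 50 livers (median -0.45) and 2 and 7 in vehicle livers (median -1.21); with erlotinib 2, 6 were higher and none lower than in vehicle livers (median 0.73). Among them the bile acid carrier Slc10a1 was -4.35 ± 0.21 in DEN 100 livers (adjusted p = 5.04e-12) and 1.57 ± 0.21 with erlotinib 2 (adjusted p = 0.000162). Slco1b2 fell further in DEN 100 livers, at -4.89. The 3 higher carriers there were Abcc3, Slc17a1 and Slc17a3, and the largest rise was that of Abcc3, at 3.18. Of 6 glutamine and glutamate enzymes, 5 were lower in DEN 100 livers (median -0.78), 2 in DEN 50 livers (median -0.58), 5 in vehicle livers (median -1.06) and none was called with erlotinib 2 (median 0.47). The largest fall of these enzymes was that of Oat, at -3.02 in DEN 100 and -2.53 in vehicle livers. The liver glutaminase Gls2 was -1.37 ± 0.26 in DEN 100 livers (adjusted p = 0.000399) and -1.37 ± 0.26 in vehicle livers (adjusted p = 0.000559).

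Of 22 enzymes of amino acid catabolism and the urea cycle, 13 were lower in DEN 100 livers (median -1.14), 7 in DEN 50 livers (median -0.65) and 15 in vehicle livers (median -0.98), none was higher, and 3 were higher with erlotinib 2 (median 0.46). Of 10 genes of glutathione synthesis and NRF2 targets, 7 were higher in DEN 100 livers (median 1.35), 8 in DEN 50 livers (median 1.18) and 6 in vehicle livers (median 1.38), and none was called with erlotinib 2 (median -0.49). The transporter Slc7a11 is 1 of these 10 and was called in no comparison. Of 20 genes of the amino acid response, 5 were higher and 4 lower in DEN 100 livers (median 0.01), 3 and 2 in DEN 50 livers (median 0.14), 4 and 2 in vehicle livers (median 0.14) and 2 and 1 with erlotinib 2 (median 0.04). Of 12 hepatocyte transcription factors, 6 were lower and none higher in DEN 100 livers (median -0.76), 3 lower and 1 higher in DEN 50 livers (median -0.35), 5 lower in vehicle livers (median -0.38) and 2 higher with erlotinib 2 (median 0.28). The largest fall among these factors in DEN 100 livers was -1.98, that of Nr1h4. It was at 7.92, 8.09 and 7.71, against 9.87, 9.97 and 9.84 in PBS livers at week 12. Hnf4a, a nuclear receptor that drives many hepatocyte genes, was -0.72 ± 0.16 in DEN 100 livers (adjusted p = 0.00222). Its DEN 100 arrays were at 6.07, 6.32 and 6.22, near background. The median over all features was -0.01 in DEN 100, -0.02 in DEN 50, -0.03 in vehicle and 0.00 in erlotinib 2 livers. Called lower were 9.81% of all features in DEN 100, 5.13% in DEN 50, 8.73% in vehicle and 2.11% in erlotinib 2 livers. Called higher were 11.5%, 5.77%, 9.51% and 1.92%, in the same order.

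No transporter was called between weeks 18 and 12 in PBS livers (4 at an unadjusted p under 0.05, beside 0% of all features called) or in vehicle livers of week 18 against DEN 50 livers of week 12 (9 at an unadjusted p under 0.05, beside 0.543%). None was called in the interaction of DEN 50 and time (10 at an unadjusted p under 0.05, beside 0.233%), or between erlotinib 2 and erlotinib 0.5 livers (8 at an unadjusted p under 0.05, beside 0.0776%). These counts are from limma, and the ranges over other settings are given with the alternatives. The lowest adjusted p in the interaction was 0.173, for Slc22a7. Vehicle livers came from rats with vehicle injections, which DEN 50 and PBS rats did not have. Time and vehicle therefore cannot be told apart in vehicle against DEN 50 livers or in the interaction.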

How the data were processed

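The raw and normalized tables deposited by the authors hold linear bead intensity for 22523 probes. The raw table has no background subtraction or detection p-values, and array medians of 105 to 186.9; the normalized table, made by a method not given in the sources used here, has medians of 135.5 to 136.8. Total RNA came from TRIzol extraction, per the labels' protocols. The labels name no slide, scan or study for a rat, so no batch was fitted. Correlations between arrays after normalization were 0.903 to 0.991.

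The raw table was corrected for background by limma 3.58.1 under R 4.3.3 (normexp with an offset of 50), log2 transformed and then quantile normalized. A probe passed the filter if it exceeded the 40th percentile on 3 or more arrays (19685 did). Each gene was read from its brightest probe, giving 19339 features, of which 12112 are named. In all, 13793 probes carried 1 symbol and 8730 none, and Entrez identifiers of 13752 matched RefSeq's GRCr8 gene table; all 76 member symbols matched it. Slc1a5, Slc22a23 and Slc36a3 had 2 probes. Levels are not compared between genes, and 3 arrays per group limit precision.

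Group means were fitted over 21 arrays (14 residual degrees of freedom), tested with limma's moderated test and adjusted by Benjamini-Hochberg over all features. P-values set a difference of group means against the spread between rats within groups, which all 7 groups share. Per-array values were given for called members with the largest changes and for carriers chosen by role, with up to 4 genes per further list. The families and lists were chosen with earlier results of these data known. The alternatives took the deposited normalized table, left out the background correction, scaled arrays to their median or on bright probes, dropped or tightened the filter, and used a trended and robust spread, the mean of a gene's probes, the compared arrays alone, or all arrays but 1.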

Additional observations from a re-analysis of the deposited data

How the results depend on the processing

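Of 73 called changes of named transporters, 26 were called under every alternative tried and all 73 kept their direction. Calls lost were 30 under median scaling, 31 under scaling on bright probes, 14 with the compared arrays alone, 8 with the deposited normalized table, 6 without background correction, 2 with a trended and robust spread, and 1 each without the filter and with the mean of the probes; the stricter filter ended none. Counts of called transporters that moved by over 1.5 times were as follows. Under median scaling, 15 were called in DEN 100 against PBS livers (23 as reported), 4 between the DEN doses (9, then 0 higher and 4 lower in place of 5 and 4), 11 in vehicle against PBS livers (22) and 0 with erlotinib 0.5 (1). Under scaling on bright probes, which shifted the median of all features by 0.29 between the DEN doses and by 0.12 between the erlotinib doses, 9 were called in DEN 50 (14), 13 in DEN 100, 5 between the DEN doses, 13 in vehicle and 0 with erlotinib 0.5. With the compared arrays alone, 4 were called between the DEN doses, 0 with erlotinib 0.5 against vehicle and 1 between the erlotinib doses (0), where the trended and robust spread also gave 1. The deposited normalized table and no background correction each gave 0 with erlotinib 0.5. Leaving out 1 array gave 9 to 11 in DEN 50 (9 without PBS rat b or DEN 50 rat a), 19 to 22 in DEN 100, 6 to 10 between the DEN doses (6 without DEN 50 rat a), 15 to 21 in vehicle, 0 to 1 with erlotinib 0.5, 3 to 4 with erlotinib 2, 0 to 1 between the erlotinib doses (1 without erlotinib 2 rat c), and 0 over time and for the interaction, which were at 0 under every alternative. The uncalled Slc16a3 change with erlotinib 0.5 (-0.37) ran from -0.88 to 0.00054 with 1 array left out, the last, reversed in sign, without vehicle rat a. With all features, median scaling took the share of higher calls to 89.7% in DEN 50, 67.9% in DEN 100, 79.5% in vehicle and 64.8% in erlotinib 2 livers. Between the DEN doses it called 676 of 19339 features, 20% of them higher, and scaling on bright probes called 945, with 51.7% higher. Under either scaling 0 features were called with erlotinib 0.5 against vehicle. The causes of these shifts were not tested. No paired analysis was possible because the groups share no replicate numbers. Signal near background limits what the dim members can show.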
